A study of Danio rerio with 2 samples.

Results

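Cells carrying transcripts of *sox10*, *crestin* and *foxd3*, the genes that mark the zebrafish neural crest, were described here among sorted GFP+ cells of 36 hpf embryos, with cells rich in the xanthophore gene *gch2* set aside. A cell was kept when it held UMIs (unique molecular identifiers, each standing for 1 captured transcript) of at least 2 of the 3 genes, at least 4 UMIs over the 3, and *gch2* below 0.2% of its UMIs. It also had to pass the cell filter of more than 200 detected genes and less than 5% of UMIs from mitochondrial genes. Of 5631 passing cells, 149 met the rule, which were 26 of 1771 in the Nontargeting control (NTC) and 123 of 3860 in the *mgat4b* mut library. They are called crest-gated cells below.

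Single-cell RNA sequencing with a 10x Genomics 3′ kit was run on 1 control and 1 *mgat4b* mut library, so that every comparison between them is between 2 libraries and carries no replicate error and no test. Embryos of both groups were injected at the 1-cell stage with a plasmid that carried *mitfa*:Cas9, *mitfa*:GFP and an sgRNA, which was a nontargeting sgRNA in the control and an *mgat4b* sgRNA in the mutant, and GFP+ cells were isolated by FACS at 36 hpf. Both groups therefore carried Cas9 and GFP under the *mitfa* promoter, and the mutation was somatic and mosaic, made only in cells in which that promoter had been active. The label calls both samples melanocytes, and the number of embryos pooled per library was not given in the sources used here. *mgat4b* encodes an enzyme that adds a branch to the *N*-glycans of secreted and membrane proteins. The comparison asks how the crest cells of the sort differ once it is targeted.

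The neural crest is a transient population that leaves the dorsal neural tube and migrates through the embryo. It gives rise to pigment cells, glia, neurons of the peripheral nervous system and cranial skeleton. *sox10* is the transcription factor that crest cells need to form the non-skeletal fates, *foxd3* is an early crest factor that is kept in glial precursors, and *crestin* is a zebrafish transcript of premigratory and migrating crest. In fish the pigment lineage splits into black melanophores, driven by *mitfa*, silvery iridophores, whose plates are made of purines and which depend on the receptor kinase *ltk*, and yellow xanthophores, which make pteridines through *gch2*.

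The cells were chosen by their UMIs of the 3 genes and of *gch2*, so these values are a description. Over the 3 genes, control cells held 7 to 53 UMIs with a median of 15, and mutant cells 4 to 36 with a median of 9. Control cells were the deeper ones, and per 10000 UMIs the medians of the 3 genes together were 7.02 and 6.85. No control cell held fewer than 7 such UMIs, while 40 mutant cells held 4 to 6, of which 16 sat at the minimum of 4. Just outside the minimum were 4 control and 17 mutant cells with UMIs of 2 of the genes but only 2 or 3 UMIs over the 3. All 3 genes were seen in 14 control and 54 mutant cells. At the bound on *gch2*, the highest kept cell had 0.0125% of its UMIs from *gch2* in the control and 0.153% in the mutant. The lowest cell set aside had 0.721% and 0.226%. A highest kept and a lowest excluded value exist for any bound, so they do not by themselves show a natural break. In the mutant they lay close, and 41 of 123 kept cells held *gch2* UMIs. A further 9 control and 42 mutant cells met the crest criterion with *gch2* at or above 0.2%.

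*sox10* (ENSDARG00000077467) was the most evenly spread of the 3 genes. It had UMIs in 26 of 26 control cells, with 3 to 17 UMIs a cell and a median of 7, and in 120 of 123 mutant cells, with 0 to 16 and a median of 3. *crestin* (ENSDARG00000105570) was seen in 21 and 113 cells, and *foxd3* (ENSDARG00000021032) in 19 and 67. Summed over the cells of a library and scaled to 1000000 UMIs (CPM), *sox10* stood at 323 CPM in the control and 282 in the mutant, *crestin* at 240 and 290, and *foxd3* at 129 and 130.

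Depth differed in the direction opposite to cell number. The crest-gated cells had a median depth of 22572.5 (control) and 12918 UMIs (mutant), against 4919 and 6480 over all passing cells. The sorted populations also held cells of very low depth, since 30.2% of passing control cells and 9.22% of passing mutant cells had fewer than 1000 UMIs. The 2 libraries shared 2 cell barcodes, none of them of crest-gated cells. At GRCz11 the features were 25432 gene IDs under 24782 symbols, and IDs with the same symbol were summed.

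A pair of cells stood apart and are taken out in turn below. The deepest control cell, with 69419 UMIs, carried 10.9% of the control cells' UMIs and was rich in neuronal and otic transcripts, with 95 UMIs of *elavl3*, 76 of *phox2bb* and 91 of the otolith matrix gene *stm*. In the mutant 1 cell drew 47.8% of its 53290 UMIs from globin genes and held 70.2% of the globin UMIs of all mutant crest-gated cells. Globin UMIs made up 0.00804% of the control and 2.13% of the mutant cells' UMIs. They exceeded 1% of the UMIs in 0 control and 2 mutant cells, both with at least 4 iridophore genes. The less globin-rich of these stayed in when the pair was taken out. In the mutant iridophore cells described below, globin was 4.98% of the UMIs, and CPM values include it.

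**Figure D1:**
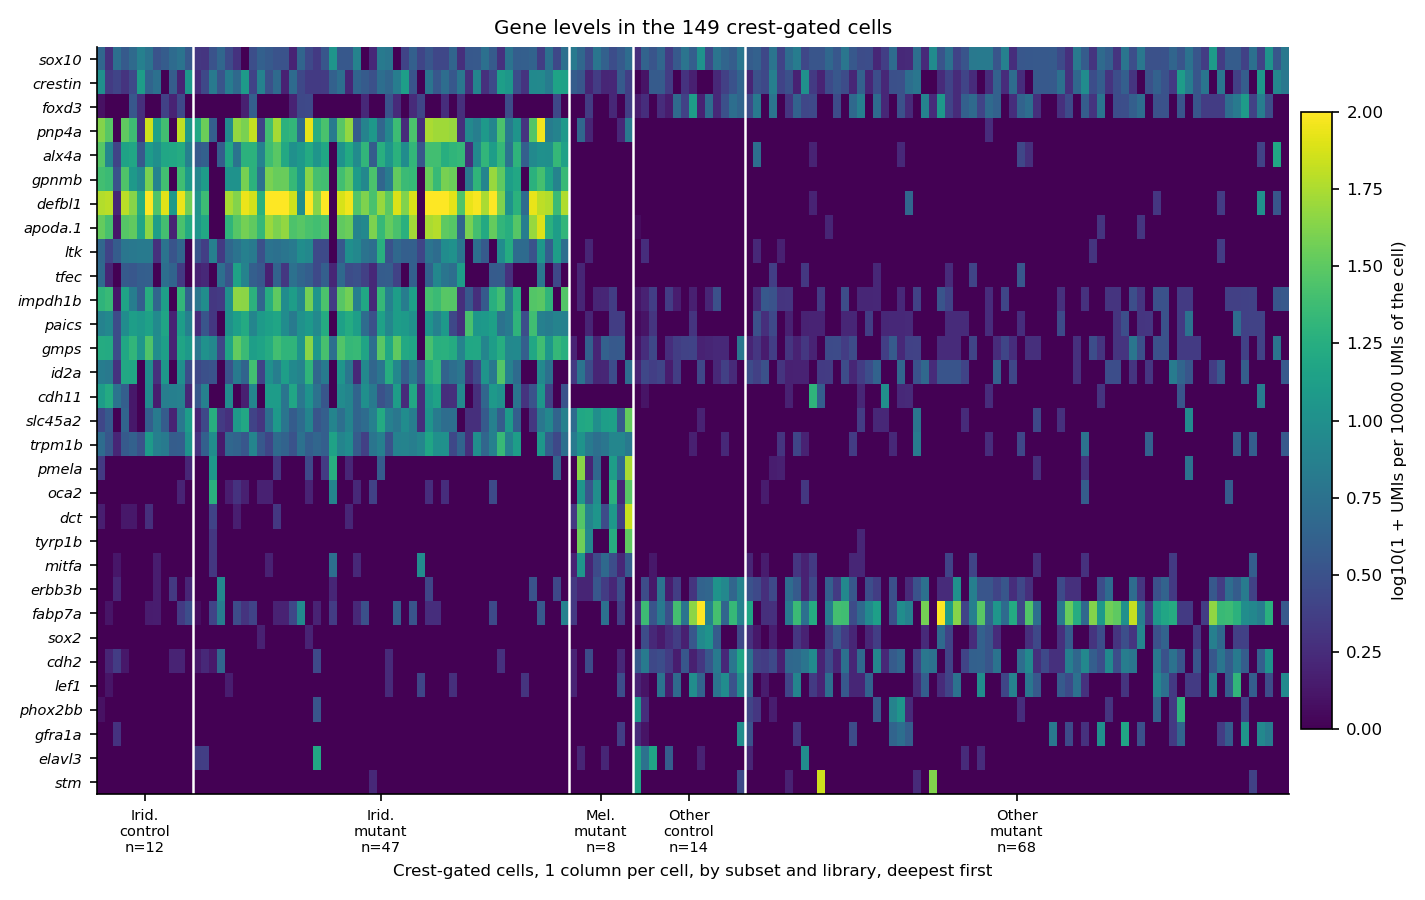
Each column is 1 of the 149 crest-gated cells and each row a gene, with color for log10(1 + UMIs per 10000 UMIs of the cell). Columns are split into cells with 4 or more iridophore genes (12 control, 47 mutant), cells with 4 or more melanophore genes (0 control, 8 mutant) and the other cells (14 control, 68 mutant). The iridophore genes fill the first block in both libraries, and *dct* and *tyrp1b* have most of their UMIs in the 8 mutant cells (94.8% and 96.7% of the mutant UMIs). The genes of these lists chose the blocks, so this is a description.

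The share of passing cells that met the rule was 1.47% in the control (26 of 1771, exact Clopper-Pearson 95% interval 0.961 to 2.14%) and 3.19% in the mutant (123 of 3860, 2.66 to 3.79%), a ratio of 2.17 (1.43 to 3.30). Intervals here and below cover counting error only, not the difference between embryos or sorts. The shallow cells of the control entered that denominator. Among cells of at least 3000 UMIs, which held every crest-gated cell, the shares were 2.62% and 4.24%, a ratio of 1.62 (1.07 to 2.46). With each such cell thinned to 6000 UMIs the shares were 1.77% (15 cells) and 3.03% (62 cells), a ratio of 1.71 (0.977 to 2.98). Thinned to 3000 UMIs, too few cells reached 4 rule UMIs to give a direction, with 7 of 994 control and 19 of 2904 mutant cells, and the ratio turned to 0.929 (0.392 to 2.203). A larger share of crest-gated cells in the mutant was thus seen at full depth and not at 3000 UMIs.

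**Figure D2:**
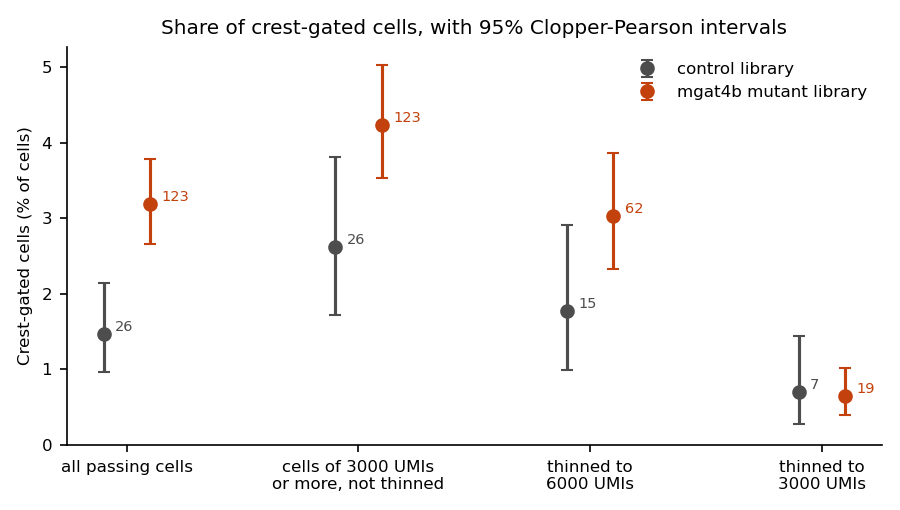
Share of cells that met the rule in percent, for control and *mgat4b* mut, with exact 95% intervals, over all passing cells, over cells of at least 3000 UMIs, and with such cells thinned to 6000 or 3000 UMIs. The mutant share is above the control share in the first 3 settings, at 3.19% against 1.47% over all passing cells, and the shares meet at 0.704% and 0.654% when cells are thinned to 3000 UMIs.

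Within each library, genes of the iridophore lineage led the list of those higher in crest-gated cells than in all other passing cells. This is a description, since the rule picked the cells, and it used the ratio of CPM with 5 CPM added. Of 17952 genes, 339 (1.89%) were at least 2-fold higher and 1591 (8.86%) at least 2-fold lower in both libraries. Of the 15 genes that led, in order of the smaller of the ratios of both libraries, 8 have a gene name beyond the rule's *crestin*. They were *apoda.1* (a member of the apolipoprotein D family), *gpnmb* (a pigment-cell glycoprotein), *defbl1* (a beta-defensin-like gene used as an iridophore marker), *pnp4a* (a purine nucleoside phosphorylase of guanine synthesis), the homeobox genes *alx4b* and *alx4a*, *ltk* and *akap12a* (a kinase anchoring protein). *defbl1*, for example, stood at 2336 and 2396 CPM in control and mutant crest-gated cells against 57.7 and 27.1 CPM in the rest.

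Of the 11 genes of the iridophore list 10 were at least 2-fold higher in both libraries, and of the 12 pigment progenitor genes 6. The lists share *tfec*, *ltk* and *ednrba*. In crest-gated cells with neither 4 iridophore nor 4 melanophore genes, 1 of the 12 progenitor genes was higher and 2 were lower. Of 22 further neural crest regulators only *id2a* and *ets1* were at least 2-fold higher over all crest-gated cells. Another 8 were at least 2-fold lower, among them *tfap2c*, *zic2b* and *twist1a*. *twist1a*, a crest and mesenchyme factor, was seen in 1 control and 6 mutant cells. The name of these cells therefore rests on the 3 rule genes, and the wider list of crest regulators was not raised with them. Genes of epidermis and muscle were low. Of 22 epidermis genes 21 were at least 2-fold lower, keratins made up 0.259% and 0.235% of the UMIs against 4.50% and 3.17% in the rest, and 12 of 14 muscle genes were lower. Not all other tissues were, since 5 of 16 neural progenitor genes were lower. Of 11 erythroid genes 0 were lower in both libraries, but this count hung on the mutant. The erythroid list summed to 75.7 CPM in the control against 8403 in the rest, and to 19562 against 18508 in the mutant. There 1 cell held 70.2% of the globin UMIs. In the crest-gated cells with neither 4 iridophore nor 4 melanophore genes, 9 of the 11 were lower in both libraries. The oligodendrocyte list summed to 671 and 432 CPM against 326 and 252 in the rest. It includes the rule gene *sox10*, whose part of the sum was fixed by the choice of cells. Of its 9 tested genes only *sox10* was at least 2-fold higher in both libraries, and 2 were at least 2-fold lower.

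The labelled cell type was checked against the driver of the sort. A UMI of *mitfa* (ENSDARG00000003732) was found in 3 of 26 control cells, with at most 1 UMI each, and in 26 of 123 mutant cells, with at most 17. After thinning to 3000 UMIs it was found in 0 control cells (a count of 0 of 26 is compatible with up to 11.5%) and in 8.13% of mutant cells, whereas comparison cells thinned in the same way held it in 22 of 839 (2.62%) and 91 of 1414 (6.44%). Comparison cells here and below held UMIs of at least 5 epidermis genes and none of *sox10* or *crestin*. They were a mixed class of 1576 control and 1918 mutant cells, whose depth before the minimum of 3000 UMIs was 4173.5 and 6382.5 at the median, and after thinning *elavl3* was found in 31.2% and 14.5% of them. In all passing cells outside the crest gate *mitfa* stood at 13.2 and 45.6 CPM, a ratio of 3.46 (2.99 to 4.01). The melanophore pigment gene *tyrp1b* had 0 UMIs in the control cells and 122 in the mutant cells, and the xanthophore oxidase *aox5* had 0 and 2. The melanophore-list genes with most UMIs in the control, *trpm1b* (128 UMIs) and *slc45a2* (82 UMIs), lay almost wholly in the iridophore cells described next.

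Counting the genes of the iridophore list in each cell split the population into groups with few cells between them. These groups were drawn after the values were seen, so the list genes describe them and are not findings about them. In the control 12 of 26 cells (46.2%, 26.6 to 66.6%) and in the mutant 47 of 123 (38.2%, 29.6 to 47.4%) held UMIs of at least 4 of the 11 genes. Of these, 12 and 44 held at least 6, and only 3 mutant cells held 4 or 5 and 4 mutant cells held 3. Those 3 mutant cells, of 25049, 15840 and 26602 UMIs, each held 4 iridophore genes but 0 UMIs of *gpnmb*, *defbl1* and *apoda.1*. The cell of 15840 UMIs held 8 melanophore genes and the cell of 26602 UMIs held 10, so the split put melanophore-rich cells in this group. Values of mutant iridophore cells below include all 3. At 3000 UMIs a cell, 10 control and 42 mutant cells still held 4 genes. Single genes of the list are another measure, and in comparison cells at that depth they varied. *defbl1* was found in 0.477% and 0.707% of them and *alx4a* in 5.96% and 4.95%. Among crest-gated cells, the mutant share with at least 4 iridophore genes was 0.828 times the control share (0.516 to 1.33), an interval that holds 1.

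*defbl1* was the most abundant gene of the iridophore list in these cells. It ranged from 2 to 249 UMIs with a median of 132 in the 12 control cells, and from 0 to 290 with a median of 67 in the 47 mutant cells, at 4873 and 5588 CPM. *pnp4a* ranged from 0 to 175 (median 57.5) and from 0 to 141 (median 18), at 2627 and 2218 CPM. The ranges of control and mutant overlapped for both genes. In the crest-gated cells with neither 4 iridophore nor 4 melanophore genes, *defbl1* had 0 and 17.5 CPM and *pnp4a* 0 and 1.17 CPM.

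The iridophore cells also carried the purine pathway, a list of 19 genes chosen after the data were seen. Its summed level was 6254 CPM in control and 6721 in mutant iridophore cells against 781 and 782 CPM in the other cells, and 13 of 16 genes with enough UMIs were at least 2-fold higher in both libraries, where 7.37% of 5275 genes were higher and 7.32% lower. *gmps*, which makes GMP, had 25 and 20 UMIs at the median cell and stood at 1302 and 1503 CPM against 84.8 and 84.1. *impdh1b*, which catalyzes the step before it, stood at 1072 and 1449 CPM against 51.5 and 64.3, and *paics*, of the shared purine route, at 829 and 814 CPM against 21.2 and 57.3. The transcription factor *tfec*, which acts in iridophore fate, stood at 210 and 261 CPM. In the other cells *tfec* had 0 UMIs in the control and was seen in 6 of 68 mutant cells, with at most 3 UMIs. *id2a*, an inhibitor of bHLH factors, stood at 635 and 609 CPM against 87.8 and 107, and the cadherin *cdh11* at 598 and 492 against 3.03 and 72.4. Melanophore-list genes were present as well, with *trpm1b*, a channel of pigment cells, at 414 and 479 CPM and the transporter gene *slc45a2* at 266 and 506 CPM.

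Another 60 passing cells (19 control, 41 mutant) held UMIs of at least 3 iridophore genes without meeting the crest rule, and they serve as a comparison. Their iridophore list summed to 5277 and 5461 CPM against 13864 and 14569 in the crest-gated iridophore cells, and 8 of 10 of its genes and 8 of 16 purine genes were at least 2-fold higher in the crest-gated cells, beside 3.24% of 4662 genes higher and 7.83% lower. *tfec* stood at 32.2 and 64.8 CPM there. The gates asked for at least 4 of these genes in the crest-gated cells and at least 3 in the others, so the choice of cells fixes part of the difference in the list. The 60 cells were also mixed. Their mesenchyme and fin fold list summed to 2189 and 4005 CPM, against 931 and 97.6 in the crest-gated iridophore cells. Their neural progenitor list summed to 3369 and 1032 CPM, against 845 and 725.

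In the mutant alone 8 of 123 cells (6.50%, 2.85 to 12.4%) held at least 4 melanophore genes and fewer than 4 iridophore genes, against 0 of 26 in the control, which allows up to 11.5%. The intervals overlap, and 26 control cells were too few to detect a difference of this size. At 3000 UMIs a cell 8 of 123 mutant cells met this count, and at 6000 UMIs 7 of 118, which need not be the same cells. The list that chose the cells holds *dct*, *tyrp1b*, *pmela* and *oca2*, so their values describe the 8 cells and are not findings about them. *dct*, which encodes dopachrome tautomerase of melanin synthesis, was named after its values were seen. It ranged from 2 to 50 UMIs with a median of 13.5 in the 8 cells, at 1226 CPM. These cells held 94.8% of the *dct* UMIs of the mutant crest-gated cells. *mitfa* was seen in 8 of 8, with 1 to 17 UMIs and 285 CPM. *tyrp1b*, a melanosome enzyme gene, was seen in 4 of 8, at 991 CPM, and *pmela*, which encodes the fibril protein of melanosomes, in 6 of 8, at 1192 CPM. *oca2*, a melanosome transport gene, was seen in 6 of 8, at 714 CPM. These cells carried 42 *sox10* and 19 *crestin* UMIs, each in 8 of 8 cells, but 4 *foxd3* UMIs in 3 cells. No UMI of the replication gene *pcna* or the proliferation gene *mki67* was found in any of the 8. This held for the gate and not for every melanophore-rich cell. Of those counted with the iridophore cells, the cell of 26602 UMIs held 13 *pcna* and 8 *mki67* UMIs. The cell of 15840 UMIs held 0 of each. *mgat4b* itself had 26 UMIs in 7 of the 8, at 218 CPM (143 to 320), against 39.8 CPM in the other mutant crest-gated cells.

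The remaining 14 control and 68 mutant cells held *foxd3* more often than the iridophore cells. As *foxd3* is a rule gene, its values are a description, and the choice of cells fixes part of them. *foxd3* was seen in 13 of 14 and 50 of 68 of them, at 197 and 222 CPM, and in 6 of 12 and 14 of 47 iridophore cells, at 55.9 and 37.1 CPM. Of 13 tested genes of the glial list 3 were at least 2-fold higher in these cells than in all other passing cells of both libraries (*fabp7a*, *erbb3b* and *entpd3*) and 3 at least 2-fold lower (*gfap*, *plp1a* and *fabp7b*). *fabp7a*, a fatty-acid binding protein of glia and progenitors, ranged from 4 to 230 UMIs with a median of 12.5 in the control cells and from 0 to 220 with a median of 9 in the mutant cells, at 1753 and 1364 CPM against 26.3 and 97.6 CPM in iridophore cells. *erbb3b*, the neuregulin receptor of Schwann cell precursors, stood at 218 and 172 CPM against 19.7 and 34.4 CPM. *sox2*, a progenitor and glial factor, stood at 170 and 86.5 CPM against 0 and 2.75 CPM.

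At 3000 UMIs a cell, 64.3% of control and 38.2% of mutant cells of this group held at least 2 genes of the glial list, against 8.33% and 2.13% of iridophore cells and 16.7% and 10.5% of comparison cells. *fabp7a* alone was found in 19.3% and 11.8% of comparison cells at that depth, so its presence in a cell says little, and its level is the clearer measure. Against all other passing cells 242 of 17901 genes (1.35%) were at least 2-fold higher and 1494 (8.35%) lower. Genes among the most raised, picked after their values were seen, were the adhesion gene *mcamb* at 578 and 651 CPM against 34.2 and 50.4, the cytokine receptor family gene *crlf1a* at 263 and 445 CPM and the plexin gene *plxnb1a* at 502 and 437 CPM. *cdh2*, which encodes N-cadherin, was present in 14 of 14 and 55 of 68 cells at 266 and 280 CPM. It was common elsewhere too, since at 3000 UMIs it was found in 57.1% and 48.5% of these cells and in 46.8% and 33.7% of comparison cells.

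A few cells of this group leaned to named derivatives. At least 3 UMIs of *phox2bb*, the factor of enteric and autonomic neurons, were found in 2 control and 8 mutant crest-gated cells, 9 of these 10 in this group. At least 3 UMIs of *gfra1a*, the GDNF co-receptor of enteric progenitors, were found in 3 and 12 cells, 14 of these 15 in this group. At least 10 UMIs of the pan-neuronal gene *elavl3* were found in 3 and 2 cells. UMIs of at least 3 otic genes other than *sox10* were found in 1 and 5 cells, and the otic epithelium, which also expresses *sox10*, cannot be told apart from crest in them by the rule.

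**Figure D3:**
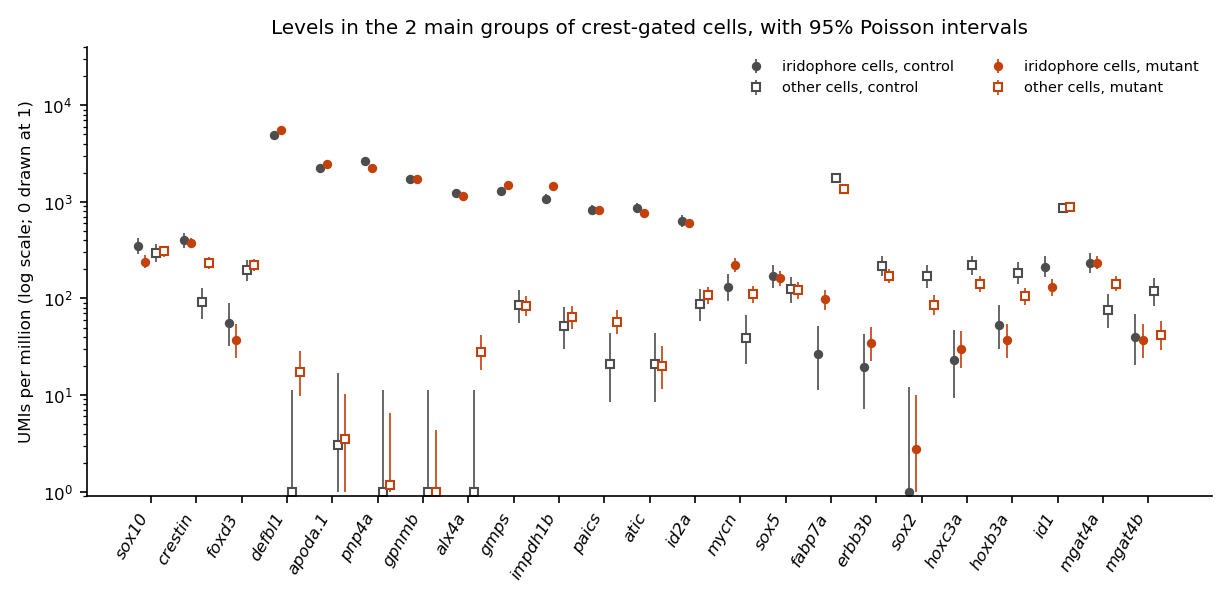
Level in CPM on a log axis of 23 genes in the iridophore cells and the other crest-gated cells of each library, with 95% Poisson intervals and 0 CPM drawn at 1. Control and mutant points lie close for most genes within a group, and the groups differ by more, as for *defbl1* (4873 and 5588 CPM in iridophore cells, 0 and 17.5 CPM in the other cells) and *fabp7a* (26.3 and 97.6 CPM against 1753 and 1364 CPM).

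Hox genes, which record position along the body axis, were fewer in the iridophore cells. At 3000 UMIs a cell 16.7% of control and 25.5% of mutant iridophore cells held a UMI of any of 48 hox genes, as did 57.1% and 47.1% of the other crest-gated cells and 39.7% and 39.0% of the other passing cells. Hox genes of paralog groups 9 to 13, the most posterior, summed to 3.29 and 8.25 CPM in iridophore cells and to 185 and 56.1 CPM in the other crest-gated cells. *hoxc3a* was the most abundant, at 23.0 and 30.25 CPM in iridophore cells and 221 and 141 CPM in the others.

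The targeted gene was read first in the comparison of the mutant with the control. *mgat4b* (ENSDARG00000004115) had 51 UMIs in 10 control cells and 89 UMIs in 37 mutant cells, at 80.4 CPM (59.9 to 106) and 52.3 CPM (41.99 to 64.3), a ratio of 0.650 (0.456 to 0.937). Of the 51 control UMIs 30 came from 1 cell, the deep one that stood apart. Without the 2 cells that stood apart the levels were 37.2 and 51.6 CPM, and the ratio turned to 1.39 (0.852 to 2.36). In iridophore cells it was 0.941 (0.461 to 2.04), and in the other group 0.356 (0.220 to 0.575) with and 1.22 (0.576 to 2.88) without that cell. Among all other passing cells the ratio was 0.805 (0.750 to 0.864). A lower transcript level in mutant crest-gated cells was therefore carried by 1 control cell. A 3′ count also does not show whether an allele was cut. The paralog *mgat4a*, which encodes the same kind of enzyme, was at least 2-fold higher in crest-gated cells than in the rest, at 151 and 186 CPM against 50.4 and 47.2, and its ratio of mutant to control was 1.23 (0.973 to 1.56). The 9 control and 42 mutant cells set aside for *gch2* also stood above the rest in *mgat4a*, at 69.9 and 116 CPM. Their *mgat4b* stood at 93.1 and 182 CPM, a ratio of 1.96 (1.15 to 3.54). In iridophore cells *mgat4a* stood at 233 and 234 CPM, and in the other group at 75.7 and 143 CPM, a ratio of 1.88 (1.22 to 3.02) that was 1.69 (1.07 to 2.80) without the cell that stood apart. Whether the groups differ in this was not tested.

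A size rule was used to name genes that differed between the libraries. It asked for at least 50 UMIs over both libraries, levels that differed at least 2-fold with a 95% interval of the ratio that left out 1, and no single cell with more than 25% of the UMIs of the library where the gene was higher. Of 5466 genes with enough UMIs, 218 (3.99%) were higher and 152 (2.78%) lower in mutant crest-gated cells. Over the 8981 genes with at least 20 UMIs the median log2 ratio was -0.14, so gene list medians are read against that. The ratios of the same genes in the other passing cells leaned the same way. Of 217 higher genes measured there 163 had a ratio above 1 and 25 a ratio of at least 2, and of 152 lower genes 131 had a ratio below 1 and 9 a ratio of at most 0.5, while of all tested genes 2390 were above 1 and 3073 below. The part that the library as a whole played in these differences cannot be told apart from the part of the targeting.

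Among the 10 genes with the largest ratios upward, *si:ch211-11c3.9* went from 0 UMIs to 150 in 10 mutant cells, at least 18.6-fold higher against a floor of 3 UMIs in the control library, and its ratio in the other passing cells was 39.5. *wdr90*, a centriole protein gene, had 11 UMIs in 5 control cells and 163 in 62 mutant cells, a ratio of 5.52 (3.01 to 11.3). *pcdh9*, a protocadherin of neural cells, had 30 and 317 UMIs, a ratio of 3.94 (2.70 to 5.94), and unlike it the other passing cells stood at a ratio of 0.477. *runx2b*, a skeletal transcription factor gene, had 13 and 158 UMIs, of which 12 and 123 were in the other group, a ratio of 4.53. *gch2* was among the 10, at 8 and 97 UMIs, but is bounded by the rule. The rest were the linker histone gene *h1-10*, *gadd45bb*, *lipg*, *kpna2* and *tjp3*, with ratios of 3.54 to 7.24.

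The 10 genes with the smallest ratios follow. *rrm2*, the small subunit of ribonucleotide reductase and here the sum of 2 gene IDs, had 141 UMIs in 14 of 26 control cells and 94 in 33 of 123 mutant cells, a ratio of 0.249 (0.189 to 0.325). *dnmt1*, the maintenance DNA methyltransferase, had 64 and 58 UMIs, a ratio of 0.338 (0.233 to 0.490), where the other passing cells stood at 1.04. *rbbp4*, a histone chaperone subunit, had 172 and 169 UMIs, a ratio of 0.366. The keratin gene *krt91* had a ratio of 0.257, beside 0.311 in the other passing cells. *cdh13*, a cadherin, had 59 of its 60 control UMIs in the other group, with a ratio of 0.329. The remaining genes were *zgc:194989*, *hist1h2a4*, *dhrs3b*, *rbpjb* and *si:ch211-113a14.12*, with ratios of 0.262 to 0.373.

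**Figure D4:**
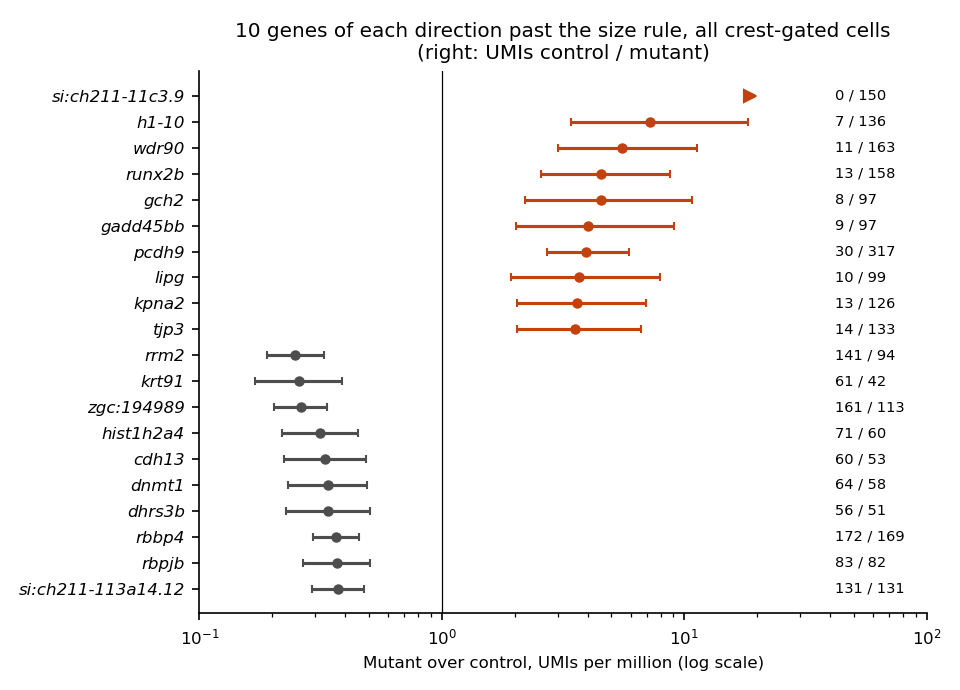
Ratio of mutant to control CPM with its 95% counting interval, on a log axis, for the 10 genes with the largest ratio in each direction among those past the size rule with at least 100 UMIs, with the UMIs of both libraries at the right. The arrow marks the ratio of 18.6 for *si:ch211-11c3.9*, taken against the floor set for the control UMIs. The lower limit of its 95% counting interval was 14.97. The intervals of all 20 genes leave out 1.

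The iridophore cells and the other cells were then compared between libraries separately. The deep control cell that stood apart held 69419 of the 330350 UMIs of the other control cells. Values of the other cells below include it. Mutant iridophore cells had 104 of 2742 genes (3.79%) higher and 48 (1.75%) lower, and in the other cells 163 of 3149 (5.18%) were higher and 52 (1.65%) lower. Of 2201 genes tested in both groups, 62 and 92 were higher and 11 were higher in both, which was 17.7% and 12.0% of each list. In the other direction 41 and 26 were lower and 2 in both. Genes named here were chosen after their values were seen. *klf6a*, a zinc-finger factor gene, rose from 207 to 682 CPM in iridophore cells and from 397 to 830 CPM in the other cells, with a ratio of 1.26 in the other passing cells. *usp6nl*, a regulator of small GTPases, rose 2.89-fold and 2.17-fold, beside 0.959 in the other passing cells. *atp6v0e1* (2.52-fold and 3.67-fold) and *rpl9* (ratios of 0.393 and 0.459) moved the same way in the other passing cells, at 3.16 and 0.470.

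Replication genes were lower in mutant crest-gated cells. All 13 tested S phase genes had intervals below 1, and 6 of them passed the size rule downward, with a list median of -1.04 on the log2 scale. Of all 5466 tested genes 1032 had intervals below 1 and 152 passed downward. *pcna*, the sliding clamp of DNA replication, ranged from 0 to 41 UMIs with a median of 7.5 in control cells and from 0 to 22 with a median of 1 in mutant cells. The ranges overlapped, and the levels were 424 and 206 CPM, a ratio of 0.486 (0.414 to 0.572). *rrm2*, *slbp* (ratio 0.425) and *rpa2* (0.458) were also lower, whereas *mcm6* (0.579) and *dut* (0.579) fell short of the 2-fold bound. In the other passing cells the median of the same 15 genes was -0.04, and *pcna* stood at a ratio of 1.03. The list kept a median of -1.02 without the 2 cells that stood apart and -0.83 under another scaling of the libraries (TMM).

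Both group medians were below 0. In the other cells the S phase median was -0.997 with 4 of 11 genes lower, and in iridophore cells -0.46 with 0 of 11. Intervals lay below 1 for 9 of 11 S phase genes in the other cells, beside 576 of all 3149 tested. In iridophore cells they did for 2 of 11, near the share of all tested genes (442 of 2742). Median *pcna* per 10000 UMIs there was 0.884 and 0.873. Whether the groups differ in this could not be tested with 1 library each. At 3000 UMIs a cell, 65.4% of control and 44.7% of mutant crest-gated cells held at least 2 S phase genes, against 32.4% and 32.1% of comparison cells. The shares were 71.4% and 44.1% in the other cells and 58.3% and 53.2% in iridophore cells. The 8 melanophore cells, found in the mutant only, held 0 *pcna* UMIs. The melanophore-rich cell of 26602 UMIs, counted with the iridophore cells, held 13.

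Genes of G2 and M phase had another pattern. Their median was 0.46, with *kpna2* (3.61) and *ube2c* (2.24) higher and *ccna2* (0.491) lower among 18 tested, and -0.09 in the other passing cells. Of all tested genes 3.99% were higher and 2.78% lower. *mki67* stood at 288 and 428 CPM, *cenpf* at 101 and 187 CPM and *top2a* at 115 and 159 CPM, none past the rule. *hmgb2a*, an abundant chromatin protein gene of cycling cells, stood at 2186 and 1542 CPM. Per cell *mki67* went the other way, with a median per 10000 UMIs of 1.43 in control and 0.555 in mutant crest-gated cells. After thinning to 3000 UMIs, 50% of the control cells still carried *mki67*, against 31.7% in the mutant. The mutant iridophore cell of 25049 UMIs alone held 53 *mki67* UMIs. In both groups the S phase median was below and the G2 and M phase median above that of all genes, which was -0.11 in each. In iridophore cells the G2 and M phase median was 0.74, with *top2a* and *ube2c* higher. The share of cells with at least 2 G2 and M phase genes at 3000 UMIs was 57.7% in the control and 46.3% in the mutant, beside 39.7% and 34.8% in comparison cells. The summed level of the list was 3300 and 3144 CPM.

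**Figure D5:**
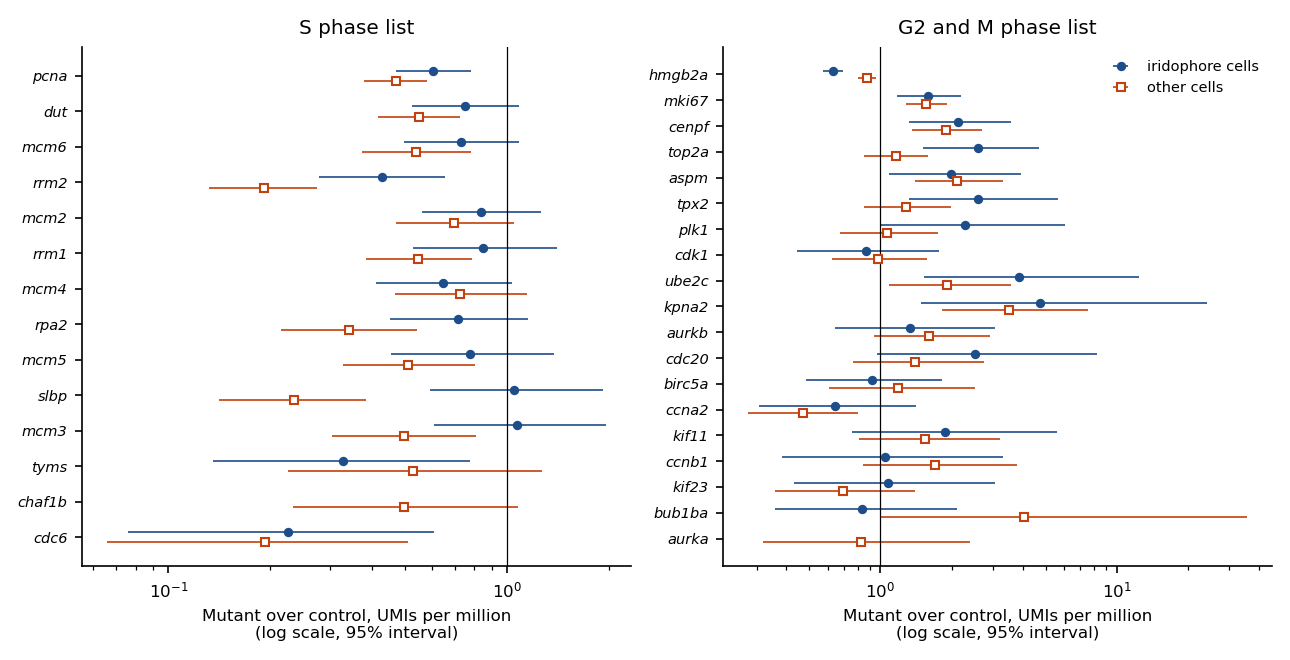
Ratio of mutant to control CPM with 95% counting intervals, on a log axis, for S phase genes (left) and G2 and M phase genes (right), in the iridophore and in the other crest-gated cells. S phase genes lie mostly below 1, as for *pcna* at 0.605 and 0.468. Most G2 and M phase genes lie above 1, as for *mki67* at 1.59 and 1.56. These are ratios of summed levels, and the median *mki67* per 10000 UMIs of a cell was lower in the mutant in both groups.

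Genes of protein folding in the endoplasmic reticulum, the compartment in which *N*-glycans are attached, passed the rule upward in the other cells and not in iridophore cells, a difference between the groups that was not tested. Over all crest-gated cells the unfolded protein response list had a median of 0.38, 9 of 15 tested genes with intervals above 1, and *pdia6* (2.27) and *dnajc3a* (2.93) past the rule, where 660 of all 5466 tested genes had intervals above 1. In the other cells the median was 0.72 and 4 of 13 tested genes passed upward, beside 5.18% of all tested genes, and *hspa5*, the chaperone BiP, rose from 563 to 1169 CPM, a ratio of 2.08 (1.77 to 2.44). *pdia4* (2.23), *pdia6* (2.52) and *herpud1* (2.46) rose with it. These values include the deep control cell that stood apart. In iridophore cells the median was -0.01, *hspa5* stood at 602 and 593 CPM, and *hsp90b1* at 404 and 194 CPM. Of 10 tested genes of the list 0 passed there in either direction. *hsp90b1*, though past 2-fold, did not pass the size rule, which also bounds the part of a single cell. The list was also above 1 for 14 of 16 genes in the other passing cells, where the median was 0.27 and *hspa5* had a ratio of 1.75.

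The dissociation stress genes had a median of -0.17, with *hspa8* at 2969 and 2720 CPM and *atf3* at 1649 and 1726 CPM. Past the rule, 1 of 14 genes, *dusp1* (0.490), was lower, beside 2.78% of all tested genes.

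Among pigment genes, *mitfa* rose from 3 UMIs (4.73 CPM) to 75 UMIs (44.1 CPM), a ratio of 9.32 (3.07 to 46.2), and the 8 melanophore cells held 45.3% of the mutant UMIs. In the other passing cells 7 of the 8 melanophore-list genes measured there also had a ratio above 1. Of 6 tested genes of the list, most of which reached the UMI minimum through the mutant, 1 passed the rule upward, beside 3.99% of all tested genes. That gene, *slc45a2*, rose from 129 to 309 CPM, a ratio of 2.39 (1.89 to 3.06), and within iridophore cells from 266 to 506 CPM, a ratio of 1.90 (1.49 to 2.45) that did not reach 2. Of its UMIs in mutant iridophore cells, 45 came from the melanophore-rich cell of 26602 UMIs. *pmela* had 6 and 220 UMIs and *oca2* 1 and 165. *tfap2e*, a factor of melanophore development named after its values were seen, had 0 and 77 UMIs. Of the iridophore list 0 of 10 genes passed the rule, with a median of -0.03 over all crest-gated cells and 0.14 in iridophore cells. *gpnmb* stood at 1710 and 1742 CPM and *apoda.1* at 2226 and 2435 CPM there. Of 16 purine genes 1 passed, *prps1b* at 0.483, beside 2.78% of all tested genes lower, and the list median was -0.20. Of the xanthophore list *gch2* alone passed.

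Of 10 tested regulators of the crest 3 were higher and 0 lower, beside 3.99% and 2.78% of all tested genes. Their median was -0.10, beside -0.14 over all genes, with *mycn*, a growth factor-responsive Myc gene, rising from 83.5 to 169 CPM (ratio 2.03, 1.51 to 2.77), and *msx1b* (3.43) and *tfap2e* higher. *tfap2e*, with 0 control UMIs, entered the tested genes only through the mutant, where the 8 melanophore cells held 50.6% of its UMIs. The count of 3 is in part fixed by that. *id2a* stood at 350 and 327 CPM, *sox5* at 147 and 135 CPM, and *pax7a*, a factor of xanthophore precursors, at 139 and 79.3 CPM. *crestin* rose in the other cells from 90.8 to 234 CPM, a ratio of 2.57 (1.75 to 3.91), and stood at 401 and 377 CPM in iridophore cells. As a rule gene it is a description, and 10 of 14 control and 59 of 68 mutant cells of the other group held it. The deep control cell that stood apart, with 69419 of the 330350 UMIs of the other control cells, held 0 *crestin* UMIs and is included in that ratio.

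The glial list had 0 of 5 tested genes past the rule and a median of -0.26. *fabp7a* stood at 925 and 734 CPM, *erbb3b* at 123 and 109 CPM and *sox2* at 88.3 and 44.7 CPM, the last with 28.6% of its control UMIs in 1 cell. Of the enteric and autonomic list *gfra1a* rose from 22.1 to 49.9 CPM (2.26, 1.28 to 4.32) and the receptor gene *ret*, its signaling partner, from 20.5 to 41.1 CPM (2.01, 1.101 to 3.96). These are summed levels. Cells with at least 3 *gfra1a* UMIs were 11.5% of control and 9.76% of mutant crest-gated cells, a ratio of 0.846 (0.257 to 2.79). *phox2bb* had 95% of its control UMIs in the deep cell and *elavl4* 67.1%. The pan-neuronal list, at a median of -2.21, moved to -1.54 without the cells that stood apart, with none of 8 genes past the rule. Neural progenitor genes (median -0.57) had none past the rule, though 5 of 7 tested had intervals below 1 and 0 above. Sensory neuron genes, of which 3 had enough UMIs, and genes of the oligodendrocyte lineage (2 tested) had none past it.

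Genes with which crest cells move and find their way are read beside all 5466 tested genes, of which 218 were higher and 152 lower. Of 24 tested migration and adhesion genes 1 was higher, the E-cadherin gene *cdh1* (2.76), and 1 lower, *cdh6* (0.485), with a median of -0.05. *sparc*, a matrix glycoprotein gene, stood at 372 and 395 CPM, *ctnnb1*, which encodes beta-catenin, at 402 and 352 CPM, and *ctnna1* at 246 and 260 CPM. Of 25 guidance receptors *ret* and *gfra1a* were higher in summed level and none lower, with a median of -0.11. *plxna3*, a semaphorin co-receptor gene, stood at 345 and 333 CPM, and *robo1*, a Slit receptor gene, at 336 and 153 CPM with 27.7% of its control UMIs in 1 cell. Within iridophore cells *robo1* fell from 329 to 117 CPM, a ratio of 0.355 (0.263 to 0.479), whereas *plxna1a* rose from 82.2 to 173 CPM. None of 18 Wnt, Notch and BMP genes passed, with a median of -0.40 beside -0.37 in the other passing cells, *id1* at 550 and 505 CPM and *her6* at 422 and 306 CPM. Of 6 hox genes *hoxb7a* was higher (2.24).

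Genes of *N*-glycan branching other than the target were sparse. Of 6 tested, the target among them, *man2a1*, a Golgi mannosidase gene of *N*-glycan trimming, was higher, at 6 and 63 UMIs (3.91, 1.70 to 11.1). Of all tested genes 3.99% were higher and 2.78% lower. *man2a1* reached the UMI minimum through the mutant. *man2a2* stood at 33.1 and 37.6 CPM and *mgat5*, of a further branch, at 47.3 and 28.2 CPM. Galectins bind branched *N*-glycans, and only *lgals3a* had enough UMIs, at 61.5 and 69.3 CPM. *lgals3b* had 5 and 11 UMIs and *lgals9l1* 0 and 0. The 4 tested genes for protein targets that the study names for the enzyme had none past the rule, with a median of -0.01. Of genes the study uses for migratory cells, *rac2* had 10 and 27 UMIs, *itga6b* 3 and 20, *rgs2* 0 and 1 and *csf3b* 0 and 0.

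Transcripts of other tissues also differed between the libraries, and their part in these differences was not tested. *krt8* was present in 26 of 26 control and 120 of 123 mutant cells at 654 and 841 CPM, near its 715 and 774 CPM in the other passing cells. *krt4* fell from 328 to 132 CPM (0.403) and *krt91* with it, while *pfn1* and *cyt1* had ratios of 0.938 and 0.675, and the epidermis list median of -0.29 was 0.05 without the cells that stood apart. The epidermis list summed to 1746 and 1591 CPM in the crest-gated cells and to 53764 and 38534 in the rest. The erythroid list summed to 75.7 and 19562 CPM, with 10 of 10 genes above 1 and none past the rule, since 1 cell held most of it. Of the 6 tested genes of the mesenchyme and fin fold list *pah* (0 and 86 UMIs) and *msx1b* were higher, beside 3.99% of all tested genes. *pah* reached the UMI minimum only through the mutant. *col1a2* stood at 258 and 130 CPM with 40.9% and 52.9% of its UMIs in 1 cell of each library. The muscle list had 1 of 2 tested genes higher, beside the same 3.99%. The otic, ectomesenchyme and yolk or liver lists had none past the rule, and no myeloid or endothelial gene had enough UMIs.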

How the data were processed

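The deposited files hold raw UMI counts per gene and cell barcode, which the authors made with Cell Ranger 7.2.0 (per the file headers) on GRCz11, with no further filter seen. Counting by UMI removes PCR copies, and a 3′ count reads neither the cut site nor the splice form. No column of the authors' own comparisons was present. The files hold 1 library per group, so no test across samples was possible; depth ranges are given with the results, and intervals cover counting error only.

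Cells with more than 200 genes and less than 5% mitochondrial UMIs were kept, and crest-gated cells were chosen by the rule stated in the report. The members and the gene lists were chosen with earlier results of these data known. UMIs were summed per library and given as CPM. Exact Poisson intervals were used for CPM, exact conditional binomial intervals for ratios, Clopper-Pearson intervals for shares and Katz intervals for ratios of shares, all at 95%. List medians took genes with at least 20 UMIs and added 0.5 UMI. Shares were repeated with cells thinned to 3000 or 6000 UMIs, leaving out shallower cells. Named genes were the rule genes and *mgat4b*, the 4 genes with most UMIs of each of 33 lists, 10 genes per direction by size of ratio (100 UMIs or more), 15 leading genes and the study's marker genes; others are said to be chosen after their values were seen, as were a purine list and the split into groups. Scrublet in scanpy 1.11.5 called 2 control and 0 mutant doublets by its own threshold, so cells with the highest scores (25 and 119, of which 1 and 4 were crest-gated) were left out as an alternative. Simulated libraries were used to test the size rule. Python 3.11.15, numpy 2.4.6, scipy 1.17.1, R 4.3.3 and edgeR 4.0.16 (for TMM factors only, 1.08 and 0.928) were used. Alternatives changed the rule's bounds, the cell filter, doublets, scaling, the size rule and the cells that stood apart. The result of 1 gene list is not reported here.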

Additional observations from a re-analysis of the deposited data

How the results depend on the processing

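With 26 control cells, 1 cell can decide a value. The ratio of shares turned to 0.929 with cells thinned to 3000 UMIs. The ratio of *mgat4b* turned to 1.03 with no bound on *gch2*, 1.42 without cells holding 3 or more otic genes, 1.39 without the 2 cells that stood apart and 1.28 without the cell richest in *mgat4b* in each library, and was 0.941 in iridophore cells alone. The counts of higher and lower genes, 218 and 152, were 361 and 75 with TMM factors, which moved the median of all genes from -0.14 to 0.08 and the share of calls that were higher from 58.9% to 82.8%. They were 242 and 123 with totals free of mitochondrial and ribosomal protein genes (66.3% higher), 204 and 231 with the mean of per-cell CPM (46.9%), 267 and 343 with no bound on a single cell (43.8%), 406 and 479 at a ratio of 1.5 (45.9%), 60 and 22 at 3 (73.2%), 356 and 309 from 20 UMIs, 89 and 49 from 100 UMIs, 104 and 48 in cells with 4 or more iridophore genes (68.4%), and 227 and 79 in cells with fewer (74.2%). The cause of these shifts was not tested, beyond the change of genes, cells or totals that each setting makes. Without the 2 cells that stood apart 199 and 153 genes passed, of which 166 and 119 were among those named above. Of 304 list medians under the alternatives, 28 left the 95% rank interval of the median and 31 changed sign, none of them of the S phase or the G2 and M phase list. Of 40 shares of cells 12 left their interval. The alternative that leaves out cells with 5 epidermis genes had no value, because all 26 control cells and 75 of 123 mutant cells hold them. No paired analysis was possible because each group has 1 library.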
